A study of Mus musculus with 12 samples.

Results

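Crosslink repair and Fanconi pathway genes were examined in the spleens of busulfan-treated mice. The gene set was a list of 39 mouse symbols, chosen by function, that covers the Fanconi pathway and the repair proteins it calls on. All 39 symbols were found among the 18221 genes of the deposited tables. The series holds spleen RNA-seq of 12 male ICR mice, an outbred stock, with 3 mice in a group, and the mice entered the experiment at 3 weeks of age and were sampled at 8 weeks. Con-sa mice (agent label Blank) were dosed with saline and received no busulfan. The other groups all received a single injection of busulfan at 40 mg/kg body weight, after which B-sa mice were dosed with saline, B+Con-FMT mice received gut microbiota from control donors, and B+A10-FMT mice received gut microbiota from donors dosed with alginate oligosaccharide at 10 mg/kg. Fecal microbiota transplantation (FMT) was given by mouth daily for 2 weeks and was followed by 3 weeks of regular care. Donor intestinal contents were pooled within each donor group. Whether the 3 mice of an FMT group received the same pool is not stated.

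Busulfan is an alkylating anti-cancer drug that links the strands of DNA to each other. A replication fork that meets such a crosslink stalls, and the Fanconi core complex then attaches ubiquitin to the ID complex of Fancd2 and Fanci. The marked ID complex brings in nucleases that unhook the crosslink, translesion polymerases that copy past the damaged base and homologous recombination that rebuilds the broken chromatid, while the checkpoint kinases hold the cell cycle. Inherited loss of this pathway causes Fanconi anemia, in which blood-forming cells fail, and the mouse spleen holds blood-forming cells beside its lymphocytes.

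Values are RPKM, which are reads scaled to transcript length and to the number of mapped reads, deposited for each RefSeq transcript and summed here over the transcripts of a gene. Low RPKM values rise in steps of single reads, which gave a depth of about 14800000 to 15600000 reads in a mouse, so that 1 RPKM stood for 14.8 to 15.6 reads per kilobase of transcript. The spleen marker list, lymphocyte genes together with the macrophage genes Slc40a1, Spic and Siglec1, summed to between 1554 and 2144 RPKM in a mouse. Genes of pancreatic acinar cells summed to between 352 and 10306 RPKM in a mouse. They were high in all B+Con-FMT mice (6421 to 10306) and in B+A10-FMT replicate 3 (7360, against 352 and 605 in the other mice of its group). Con-sa replicate 2 was at 5700 RPKM, against 2490 and 1040 in the other Con-sa mice, and B-sa mice were at 2660, 772 and 382. Kidney genes summed to 75 to 117 RPKM in Con-sa against 1 to 62 in the busulfan groups. The part of these other tissues in the results was not tested. In whole spleen, fewer cells of a type and less RNA per cell cannot be told apart.

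Crosslink repair genes were low to moderate in level. Every member passed the filter (1 RPKM or more in 3 or more mice) and none was at 0 in any mouse, with single values between 1.43 RPKM (Rad51b) and 19.75 RPKM (Fancl). The highest means over the 12 mice belonged to Fancl (17.9 RPKM), the ubiquitin ligase of the core complex, to Polh (17.0 RPKM), a translesion polymerase, and to Rbbp8 (14.8 RPKM), which starts the resection of broken ends. The lowest belonged to the recombination genes Rad51b (2.01 RPKM) and Xrcc3 (2.34 RPKM) and to Brip1 (2.48 RPKM), a helicase that binds Brca1. Between mice of a group, the median coefficient of variation of the members was 7.36% for Con-sa, 7.44% for B-sa, 8.70% for B+Con-FMT and 7.53% for B+A10-FMT, beside 6.15%, 7.97%, 6.59% and 6.22% over all genes tested. The highest value of a single member was 34.4%, in B+A10-FMT.

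Changes in the members were small. The groups were compared with limma on log2(RPKM + 1) over 12671 genes, a gene was called at a Benjamini-Hochberg adjusted p under 0.05, and fold changes are given on this scale, which understates the change of low genes. The standard error of a member's log2 fold change was between 0.058 and 0.164, and the largest absolute log2 fold change of a member in any of the 6 comparisons was 0.52. In B-sa against Con-sa, 6 members were called higher (Brca1, Rad51c, Rad54l, Rbbp8, Eme1 and Fancl) and 1 was called lower (Atm), that is 17.9% of the members beside 14.5% of all genes tested. By direction, 4.73% of all genes were called higher (599) and 9.78% lower (1239), and median-of-ratios scaling gave 966 higher and 736 lower. With that scaling, 10 members were called higher and none lower, since Chek1, Mad2l2, Polq and Bard1 were gained and Atm was lost. The members had a median log2 fold change of 0.13 against -0.04 for all genes. The 3 B-sa mice lay above all 3 Con-sa mice for 15 members and below them for 4, where the shares over all genes were 11.2% and 22.8%.

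The other comparisons called fewer members. In B+Con-FMT against Con-sa, Rad51c, Rad54l and Fancl were higher and Fanca was lower, 4 of 39 members beside 8.87% of all genes (2.3% higher and 6.57% lower), and the median log2 fold change was 0.05 against -0.04 for all genes. With limma, no member was called in B+A10-FMT against Con-sa, beside 0.41% of all genes, and 10 had an unadjusted p under 0.05, beside 13.5%. The median log2 fold change there was 0.09 against 0.005 for all genes, and 29 of 39 members were above 0, beside 51.8% of all genes. Fancd2 alone was higher when B+A10-FMT was set against B+Con-FMT, beside 10.4% of all genes called in either direction and 7.58% called higher. The median log2 fold change of the members there, 0.043, was close to that of all genes, 0.046. For B+Con-FMT against B-sa, no member was called, beside 0.844% of all genes, and 4 had an unadjusted p under 0.05, beside 18.4%. The median log2 fold change of the members there was -0.06 against -0.004 for all genes. For B+A10-FMT against B-sa, no member was called, beside 5.27% of all genes, and 2 had an unadjusted p under 0.05, beside 24.5%. The median log2 fold change of the members there was -0.01 against 0.046 for all genes. These comparisons share mice with each other, so their values are given side by side and are not independent. A test of any difference among the 4 groups called 5 members, Rad51c, Brca1, Fanca, Fancd2 and Fancl, beside 17.1% of all genes.

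**Figure D1:**
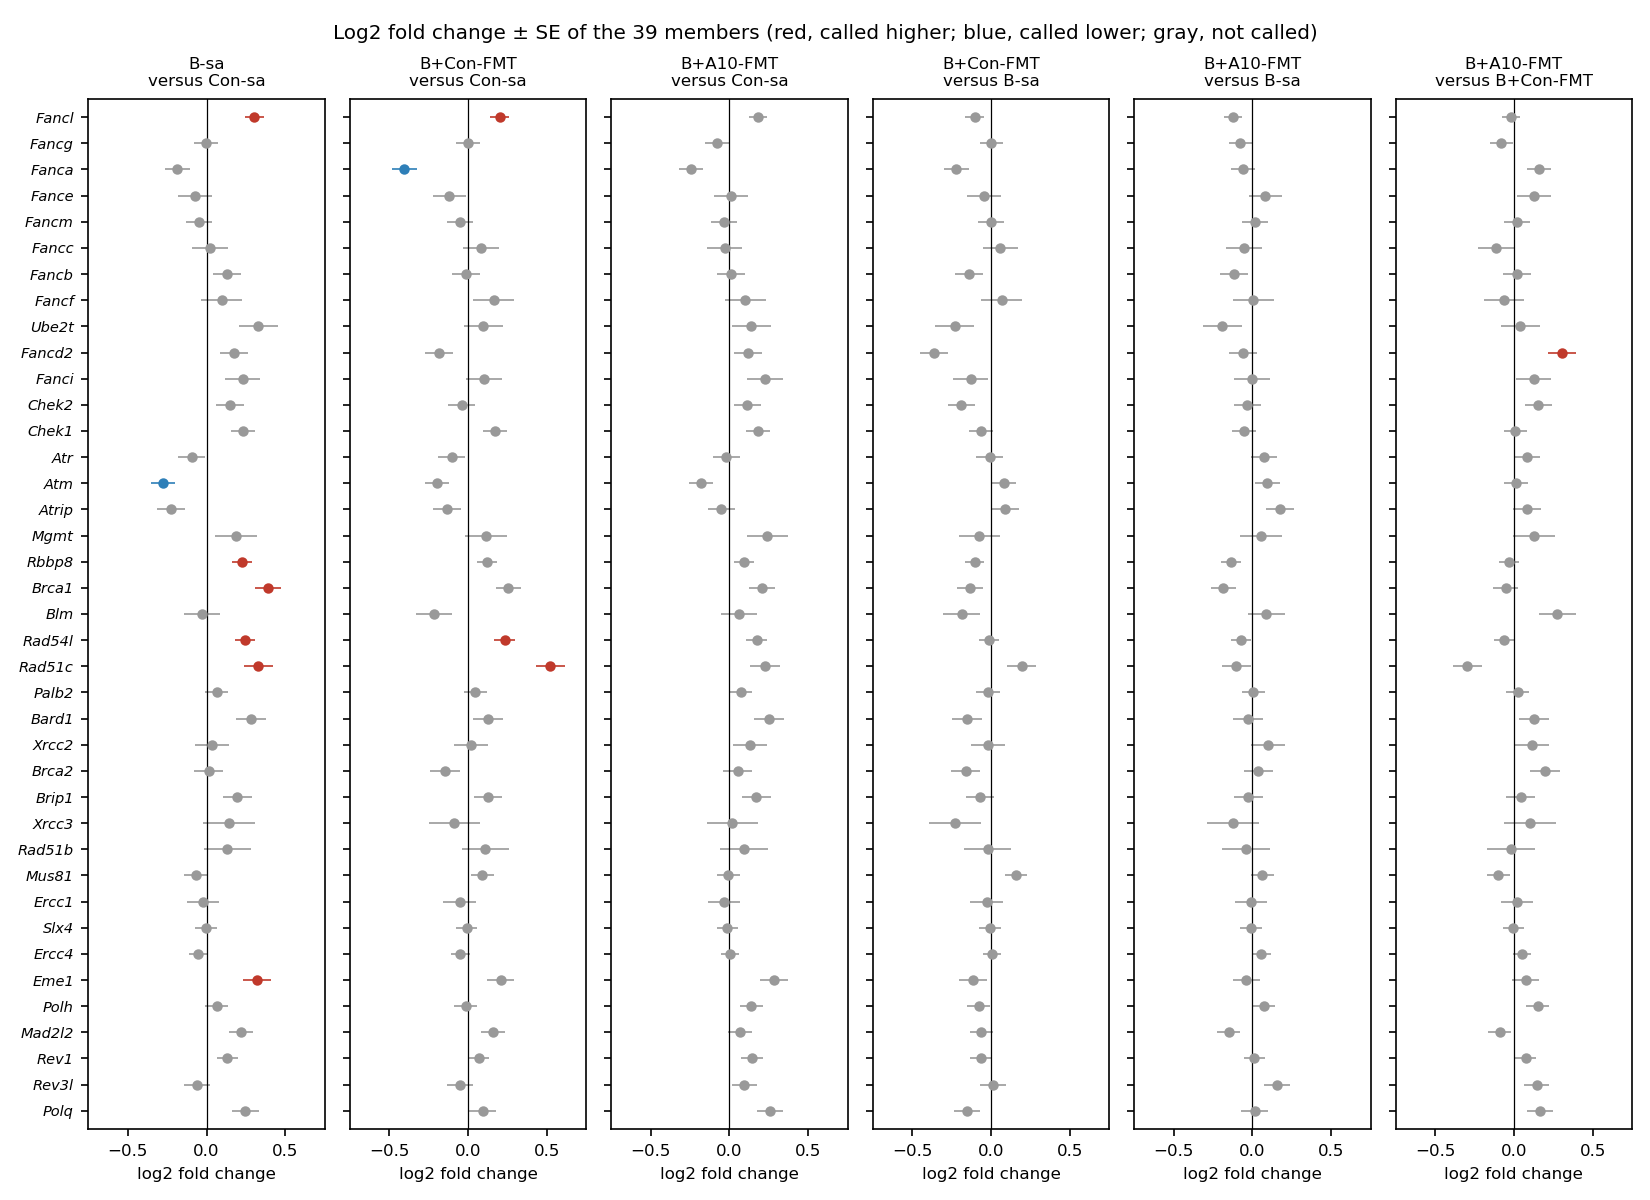
Log2 fold change on the log2(RPKM + 1) scale (x axis, bars show the standard error) of the 39 members (rows, ordered by role and level) in the 6 comparisons. Called members, 6 higher and 1 lower in B-sa against Con-sa, stand in red and blue, and all points lie within 0.52 of the zero line.

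The start regions of the members called higher in B-sa are shown because these genes moved in the same direction. RefSeq windows of GRCm38.p6, from 250 bases before to 50 bases after the start, were held for 35 of the 39 members, with none for Xrcc2, Fancd2, Rbbp8 and Rev3l. Each window was searched on both strands for an E2F site (TTTGGCGC, TTTCGCGC, TTTCCCGC or TTTGCCGC), a CHR element (TTTGAA) and a CCAAT box (CCAAT), sequences known from the promoters of cell cycle genes, and matches stand in capitals. The windows of Brca1 (chr11:101551906-101552205, minus strand), Rad54l (chr4:116123641-116123940, minus strand), Rad51c at its outer and inner start (chr11:87404905-87405204 and chr11:87404457-87404756, minus strand), Eme1 at a start inside the outer end of the gene (chr11:94653694-94653993, minus strand) and Fancl (chr11:26386834-26387133, plus strand) read as follows, 5′ to 3′ on the strand of the gene.
Brca1: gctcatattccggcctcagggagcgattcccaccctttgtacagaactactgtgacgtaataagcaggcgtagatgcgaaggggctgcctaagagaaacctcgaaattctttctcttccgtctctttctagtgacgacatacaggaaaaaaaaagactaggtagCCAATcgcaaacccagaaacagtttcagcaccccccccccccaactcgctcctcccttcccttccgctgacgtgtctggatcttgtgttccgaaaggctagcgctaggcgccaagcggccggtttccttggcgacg
Rad54l: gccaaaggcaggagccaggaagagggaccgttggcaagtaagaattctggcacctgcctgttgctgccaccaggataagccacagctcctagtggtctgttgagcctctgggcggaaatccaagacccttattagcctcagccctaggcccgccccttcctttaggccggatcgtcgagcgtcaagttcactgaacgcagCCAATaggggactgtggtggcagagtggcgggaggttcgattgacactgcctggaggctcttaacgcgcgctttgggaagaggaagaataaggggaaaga
Rad51c outer start: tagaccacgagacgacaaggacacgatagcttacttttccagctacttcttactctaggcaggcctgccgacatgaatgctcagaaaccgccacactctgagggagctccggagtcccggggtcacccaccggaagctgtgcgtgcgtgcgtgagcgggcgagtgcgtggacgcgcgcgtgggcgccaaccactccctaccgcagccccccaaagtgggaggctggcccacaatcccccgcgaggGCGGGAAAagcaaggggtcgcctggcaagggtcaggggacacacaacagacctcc
Rad51c inner start: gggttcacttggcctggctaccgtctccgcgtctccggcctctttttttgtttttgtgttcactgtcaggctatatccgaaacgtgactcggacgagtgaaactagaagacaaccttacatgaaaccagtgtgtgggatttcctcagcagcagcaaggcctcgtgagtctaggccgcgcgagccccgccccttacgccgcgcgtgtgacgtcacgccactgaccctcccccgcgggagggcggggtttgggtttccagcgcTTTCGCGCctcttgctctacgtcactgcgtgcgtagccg
Eme1: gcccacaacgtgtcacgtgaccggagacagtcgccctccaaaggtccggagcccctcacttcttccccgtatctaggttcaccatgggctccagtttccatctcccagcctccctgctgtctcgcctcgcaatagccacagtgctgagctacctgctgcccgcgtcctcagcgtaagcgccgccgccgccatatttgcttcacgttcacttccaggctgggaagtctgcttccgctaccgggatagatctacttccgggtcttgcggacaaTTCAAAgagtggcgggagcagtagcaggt
Fancl: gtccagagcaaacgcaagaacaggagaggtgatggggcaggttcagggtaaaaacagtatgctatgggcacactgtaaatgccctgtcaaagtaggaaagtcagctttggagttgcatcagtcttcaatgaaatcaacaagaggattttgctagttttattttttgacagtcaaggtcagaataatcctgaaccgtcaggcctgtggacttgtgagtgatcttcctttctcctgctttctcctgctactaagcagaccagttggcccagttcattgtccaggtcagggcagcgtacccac

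Brca1 and Rad54l each held 1 CCAAT box, whose first base lay at -86 and -50 relative to the start. Both windows of Rad51c held an E2F site, at -5 and at 11, and Eme1 held a CHR element at 21, both counted at the leftmost base as printed. Fancl held none of these letters. Fanca and Atm, the members called lower in a comparison, held CCAAT boxes too, at -50 and -23 for Fanca and at -165 for Atm. Over the 35 members, an E2F site was found in 14.3%, a CHR element in 11.4% and a CCAAT box in 57.1% of genes, beside 4.63%, 14.9% and 43.3% of the 10124 tested genes with a window. The proliferation genes described further on held them in 28.6%, 47.6% and 81.0%. These matches are a description of the letters and were tested for no effect.

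Fancl was the only member called in all 20 alternative analyses that kept the adjusted p threshold of 0.05, with a log2 fold change from 0.28 to 0.35 in B-sa against Con-sa. Fancl (chr11:26387084-26471883, GRCm38, overlapping Vrk2) was at 15.1, 15.8 and 16.2 RPKM among Con-sa mice, 19.8, 19.7 and 19.5 for B-sa, 19.2, 17.0 and 18.5 for B+Con-FMT and 17.8, 17.2 and 19.0 for B+A10-FMT. All 9 busulfan-treated mice lay above all Con-sa mice. Its log2 fold change was 0.30 ± 0.058 (SE; 1.23-fold, limma adjusted p = 0.00797) in B-sa against Con-sa and 0.20 ± 0.058 (adjusted p = 0.0490) in B+Con-FMT against Con-sa. The B+Con-FMT call was lost in 16 of 20 alternatives. The B+A10-FMT value against Con-sa, 0.18, was not called (adjusted p = 0.219).

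Fanca, a scaffold subunit of the core complex, went the other way. Fanca (chr8:123266294-123318651, overlapping Zfp276) was at 9.62, 8.33 and 9.37 RPKM among Con-sa mice, 7.87, 7.98 and 7.78 for B-sa, 5.84, 7.07 and 7.03 for B+Con-FMT and 7.92, 7.30 and 7.33 for B+A10-FMT. Every busulfan-treated mouse lay below every Con-sa mouse, and B+Con-FMT lay lowest. The log2 fold change was -0.40 ± 0.077 (adjusted p = 0.0104) in B+Con-FMT against Con-sa, -0.19 (adjusted p = 0.124) in B-sa against Con-sa and -0.25 (adjusted p = 0.219) in B+A10-FMT against Con-sa. The other core subunits, Fancb, Fancc, Fance, Fancf and Fancg, and the translocase Fancm, which anchors the complex to DNA, were called in no comparison. Their log2 fold changes in B-sa against Con-sa lay between -0.07 (Fance) and 0.13 (Fancb).

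In the ID complex, Fancd2 was lowest in B+Con-FMT. Fancd2 (chr6:113531640-113597020, overlapping Fancd2os and Gm46971) was at 6.63, 5.87 and 5.53 RPKM among Con-sa mice, 6.88, 6.66 and 7.15 for B-sa, 4.45, 5.36 and 5.71 for B+Con-FMT and 6.37, 7.17 and 6.26 for B+A10-FMT. The B+Con-FMT mice lay below all mice of B-sa and of B+A10-FMT and overlapped with Con-sa. Its log2 fold change was 0.30 ± 0.089 (adjusted p = 0.0482) in B+A10-FMT against B+Con-FMT and -0.36 ± 0.089 (adjusted p = 0.0785) in B+Con-FMT against B-sa. The call in B+A10-FMT against B+Con-FMT lay at the threshold and was lost in 17 of 20 alternatives with the same threshold, including without any single Con-sa or B-sa mouse (adjusted p from 0.0508 to 0.0609). Without B+A10-FMT replicate 3, the mouse of its group with high acinar genes, the log2 fold change was 0.335 (adjusted p = 0.0723). All B+Con-FMT mice had high acinar genes as well, and the part of this in the Fancd2 difference was not tested. With only curated records summed, its log2 fold change was larger, 0.92, and was not called (adjusted p = 0.108).

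Ube2t, the ubiquitin-conjugating enzyme that works with Fancl, had the largest standard error of the ID group. It was at 8.04, 8.45 and 9.81 RPKM among Con-sa mice, 10.8, 13.2 and 9.96 for B-sa, 8.18, 8.78 and 11.6 for B+Con-FMT and 10.1, 10.2 and 8.87 for B+A10-FMT. The B-sa mice lay above the Con-sa mice, and the log2 fold change of 0.33 ± 0.124 was not called (adjusted p = 0.0925). Fanci, the partner of Fancd2, had a log2 fold change of 0.23 in the same comparison (adjusted p = 0.186).

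Of 12 homologous recombination genes, 4 were called higher in B-sa against Con-sa, beside 4.73% of all genes, and whether the roles differed was not tested. Brca1 (chr11:101488761-101551955), which directs broken ends into recombination, was at 12.4, 10.7 and 10.8 RPKM among Con-sa mice, 14.0, 15.2 and 16.2 for B-sa, 13.5, 13.1 and 14.5 for B+Con-FMT and 11.9, 13.7 and 14.0 for B+A10-FMT. The B-sa mice lay above the Con-sa mice, and 1 B+A10-FMT mouse lay within the Con-sa range. The log2 fold change was 0.39 ± 0.080 (1.31-fold, adjusted p = 0.0104) in B-sa against Con-sa, 0.26 (adjusted p = 0.0609) in B+Con-FMT against Con-sa and 0.21 (adjusted p = 0.293) in B+A10-FMT against Con-sa. Bard1, with which Brca1 forms a ubiquitin ligase, had a log2 fold change of 0.28 in B-sa against Con-sa and was not called (adjusted p = 0.0632).

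Rad51c (chr11:87376645-87404954), which acts in strand exchange during recombination, had the largest change of any member. It was at 6.63, 5.28 and 6.30 RPKM among Con-sa mice, 7.35, 8.25 and 7.95 for B-sa, 9.28, 9.59 and 8.53 for B+Con-FMT and 7.78, 6.27 and 7.76 for B+A10-FMT. B+Con-FMT lay above every other mouse, and B+A10-FMT overlapped with both Con-sa and B-sa. The log2 fold change was 0.52 ± 0.093 (1.44-fold, adjusted p = 0.00759) in B+Con-FMT against Con-sa and 0.33 ± 0.093 (adjusted p = 0.0356) in B-sa against Con-sa. Set against B+Con-FMT, the B+A10-FMT group was at -0.30, which was not called (adjusted p = 0.0588). With median-of-ratios scaling, Rad51c was called lower in B+A10-FMT and was the only member called between the FMT groups, while Fancd2 was not called (0.26, adjusted p = 0.0816).

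Rad54l (chr4:116094261-116123700, overlapping Lrrc41), a motor protein that drives strand exchange, was at 10.2, 9.44 and 9.78 RPKM among Con-sa mice, 11.8, 12.2 and 11.5 for B-sa, 11.3, 11.4 and 12.3 for B+Con-FMT and 11.03, 12.1 and 10.4 for B+A10-FMT. All busulfan-treated mice lay above the Con-sa mice. The log2 fold change was 0.25 ± 0.065 (adjusted p = 0.0278) in B-sa against Con-sa and 0.23 ± 0.065 (adjusted p = 0.0451) in B+Con-FMT against Con-sa. Of 20 alternatives, 6 lost the B-sa call and 12 the B+Con-FMT call.

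Rbbp8, also known as CtIP, was at 13.4, 13.4 and 14.1 RPKM among Con-sa mice, 16.01, 15.6 and 16.8 for B-sa, 14.6, 15.1 and 15.1 for B+Con-FMT and 13.6, 16.01 and 14.2 for B+A10-FMT. B-sa lay above Con-sa, with a log2 fold change of 0.23 ± 0.062 (adjusted p = 0.0309), while B+A10-FMT overlapped with both. The remaining 8 recombination genes were called in no comparison. Among them, Brca2, which acts in strand invasion, and Palb2, which joins Brca1 to Brca2, had log2 fold changes of 0.01 and 0.07 in B-sa against Con-sa. The helicase Blm, which takes apart recombination intermediates, had a log2 fold change of 0.28 in B+A10-FMT against B+Con-FMT (adjusted p = 0.137), and it was the only member called there without B+A10-FMT replicate 1.

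Among the nucleases, only Eme1 was called. Eme1 (chr11:94644972-94653836, overlapping Lrrc59 and Mrpl27) is the partner of Mus81 in a nuclease that cuts branched DNA. It was at 4.69, 4.58 and 4.54 RPKM among Con-sa mice, 6.29, 5.99 and 5.70 for B-sa, 4.93, 5.65 and 5.86 for B+Con-FMT and 4.96, 6.38 and 6.17 for B+A10-FMT. Con-sa lay below all other mice, and the log2 fold change was 0.32 ± 0.088 (1.25-fold, adjusted p = 0.0321) in B-sa against Con-sa and 0.28 (adjusted p = 0.219) in B+A10-FMT against Con-sa.

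Mus81 itself was at 11.1, 10.3 and 11.3 RPKM among Con-sa mice, 10.2, 9.93 and 10.8 for B-sa, 11.6, 11.5 and 11.9 for B+Con-FMT and 10.3, 10.1 and 12.2 for B+A10-FMT. B+Con-FMT lay above B-sa, and the log2 fold change of 0.16 was not called (adjusted p = 0.255). The scaffold Slx4 and the unhooking nuclease of Ercc1 and Ercc4 had log2 fold changes between -0.06 and 0.06 in all 6 comparisons.

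No translesion or end-joining polymerase was called on the deposited scale, but with median-of-ratios scaling Polq and Mad2l2 were called higher in B-sa against Con-sa. Polh, which copies past damaged bases, was at 17.3, 17.1 and 15.0 RPKM among Con-sa mice, 17.5, 17.2 and 17.1 for B-sa, 14.6, 16.8 and 17.5 for B+Con-FMT and 17.9, 19.3 and 17.4 for B+A10-FMT. The B+A10-FMT mice lay above the Con-sa mice (log2 fold change 0.14, adjusted p = 0.425). In B-sa against Con-sa the log2 fold changes were 0.25 for Polq, which joins ends by short homology (adjusted p = 0.0671), 0.22 for Mad2l2, an accessory subunit of polymerase zeta (adjusted p = 0.0692), and 0.13 for the scaffold polymerase Rev1 (adjusted p = 0.200). Rev3l, the catalytic subunit of polymerase zeta, had a log2 fold change of -0.06.

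Atm was the only member called lower in B-sa against Con-sa. Atm (chr9:53437122-53536828), the kinase that answers double-strand breaks, was at 7.92, 7.49 and 6.89 RPKM among Con-sa mice, 6.25, 5.26 and 6.43 for B-sa, 6.32, 6.37 and 6.39 for B+Con-FMT and 6.13, 6.42 and 6.77 for B+A10-FMT. All busulfan-treated mice lay below the Con-sa mice. The log2 fold change was -0.28 ± 0.077 (adjusted p = 0.0339) in B-sa against Con-sa, -0.20 (adjusted p = 0.125) in B+Con-FMT against Con-sa and -0.18 (adjusted p = 0.340) in B+A10-FMT against Con-sa. With median-of-ratios scaling, Atm was not called in B-sa against Con-sa (-0.23, adjusted p = 0.0595).

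Atr, the kinase of stalled forks, and its partner Atrip had log2 fold changes of -0.10 and -0.23 in B-sa against Con-sa (adjusted p = 0.465 and 0.0952), and Chek1, the kinase that Atr activates, had 0.23 (adjusted p = 0.0592). Chek2, which Atm activates, was at 11.6, 10.6 and 10.6 RPKM among Con-sa mice, 10.99, 12.7 and 13.0 for B-sa, 9.36, 10.5 and 12.1 for B+Con-FMT and 11.8, 12.3 and 11.6 for B+A10-FMT. Its groups overlapped, apart from B+A10-FMT, whose mice lay just above those of Con-sa. Mgmt, which strips alkyl groups from guanine without any cut, was at 6.58, 5.80 and 9.15 RPKM among Con-sa mice, 7.66, 7.67 and 9.27 for B-sa, 7.89, 7.0 and 8.32 for B+Con-FMT and 8.89, 9.20 and 7.56 for B+A10-FMT. Mgmt overlapped between the groups in all comparisons and was called in none.

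**Figure D2:**
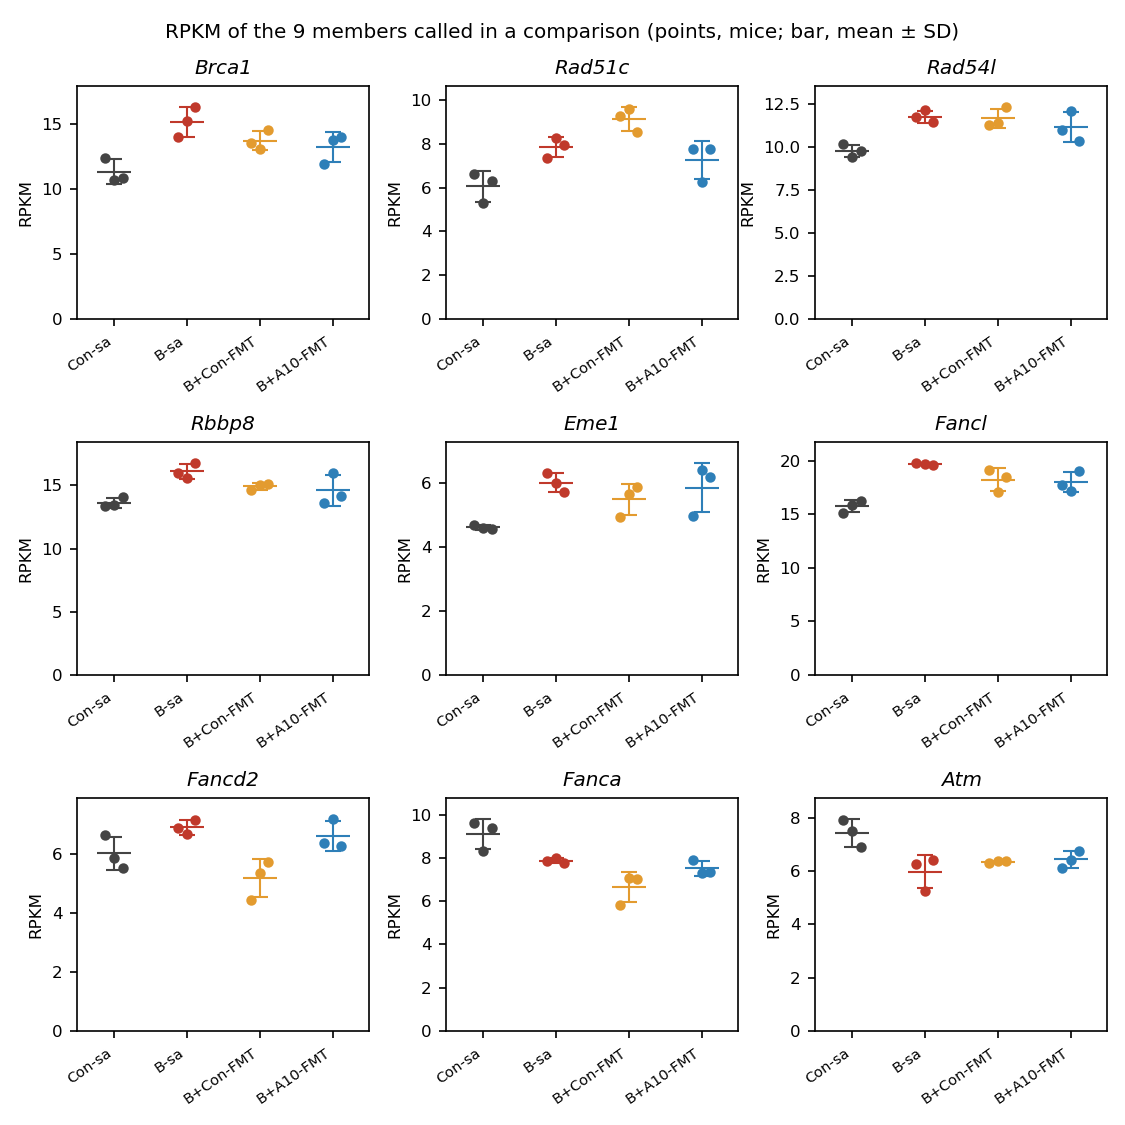
RPKM (y axis, from 0) of the 9 members called in a comparison, with 1 point per mouse and the mean ± SD of 3 mice in each group (x axis). The Con-sa points lie below those of B-sa for Brca1, Rad51c, Rad54l, Rbbp8, Eme1, Fancl and Fancd2 and above them for Fanca and Atm.

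For Brca1, Rad51c and Rbbp8 in B-sa, and for Fanca in B+Con-FMT, the differences from Con-sa lay in predicted transcript records. The 39 members had 214 transcripts in the tables, 57 curated coding (NM), 120 predicted coding (XM) and 37 predicted non-coding (XR). Curated records held 63.1% ± 0.827 (SD, n = 3) of the members' RPKM in Con-sa and 61.0% ± 0.212 in B-sa. For Brca1, the curated record was at 5.79 ± 1.5 RPKM in Con-sa and 6.14 ± 0.746 in B-sa, whereas a predicted coding record was at 5.28 ± 0.857 and 8.89 ± 0.374 RPKM. Single records were not tested. Its B+Con-FMT level was 8.17 ± 1.35 and its B+A10-FMT level 5.88 ± 0.911 RPKM.

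For Rad51c, the curated record was at 3.21 ± 0.401 RPKM in Con-sa and 3.10 ± 0.325 in B-sa, and a predicted non-coding record was at 2.47 ± 0.352 and 4.09 ± 0.757 RPKM. For Rbbp8, the curated record was at 4.52 ± 0.861 and 4.51 ± 0.437 RPKM and a predicted coding record at 9.11 ± 1.14 and 11.6 ± 0.850 RPKM. Fanca's curated record was at 4.73 ± 1.60 RPKM in Con-sa and 4.59 ± 1.19 in B+Con-FMT, beside 2.49 ± 0.324 and 1.17 ± 0.201 RPKM for a predicted non-coding record. A predicted coding record of Fanca was at 1.41 ± 1.23 and 0.25 ± 0.433 RPKM in the same groups. Another predicted non-coding record went the other way, at 0.34 ± 0.303 and 0.597 ± 1.03 RPKM. Fancl differed from these genes, since 95.3% of its RPKM lay in the curated record, which was at 15.1 ± 0.954 RPKM in Con-sa and 18.7 ± 0.170 in B-sa. Records of 1 gene share most of their sequence, so how the authors' counting divided the reads between them is uncertain.

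With only curated records summed, 1 of 37 members tested was called in B-sa against Con-sa, Fancl (log2 fold change 0.29, adjusted p = 0.0230). Calls over all genes fell as well, from 1838 to 741. In that setting Brca1 had a log2 fold change of 0.09 (adjusted p = 0.793), Rbbp8 0.01 (adjusted p = 0.986) and Rad51c -0.02 (adjusted p = 0.954). The other members that lost the call had log2 fold changes closer to those with all records, 0.24 for Rad54l (adjusted p = 0.442), 0.28 for Eme1 (adjusted p = 0.196) and -0.21 for Atm (adjusted p = 0.412). No member was called in B+Con-FMT against Con-sa, where Fanca had -0.02 (adjusted p = 0.978), Rad51c 0.29 (adjusted p = 0.202) and Fancl 0.17 (adjusted p = 0.125). Rad54l had a larger value there than with all records, 0.42 (adjusted p = 0.200). With curated and predicted coding records but without the non-coding ones, Brca1 remained called (0.39, adjusted p = 0.0111) and Rad51c did not (0.05, adjusted p = 0.812).

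**Figure D3:**
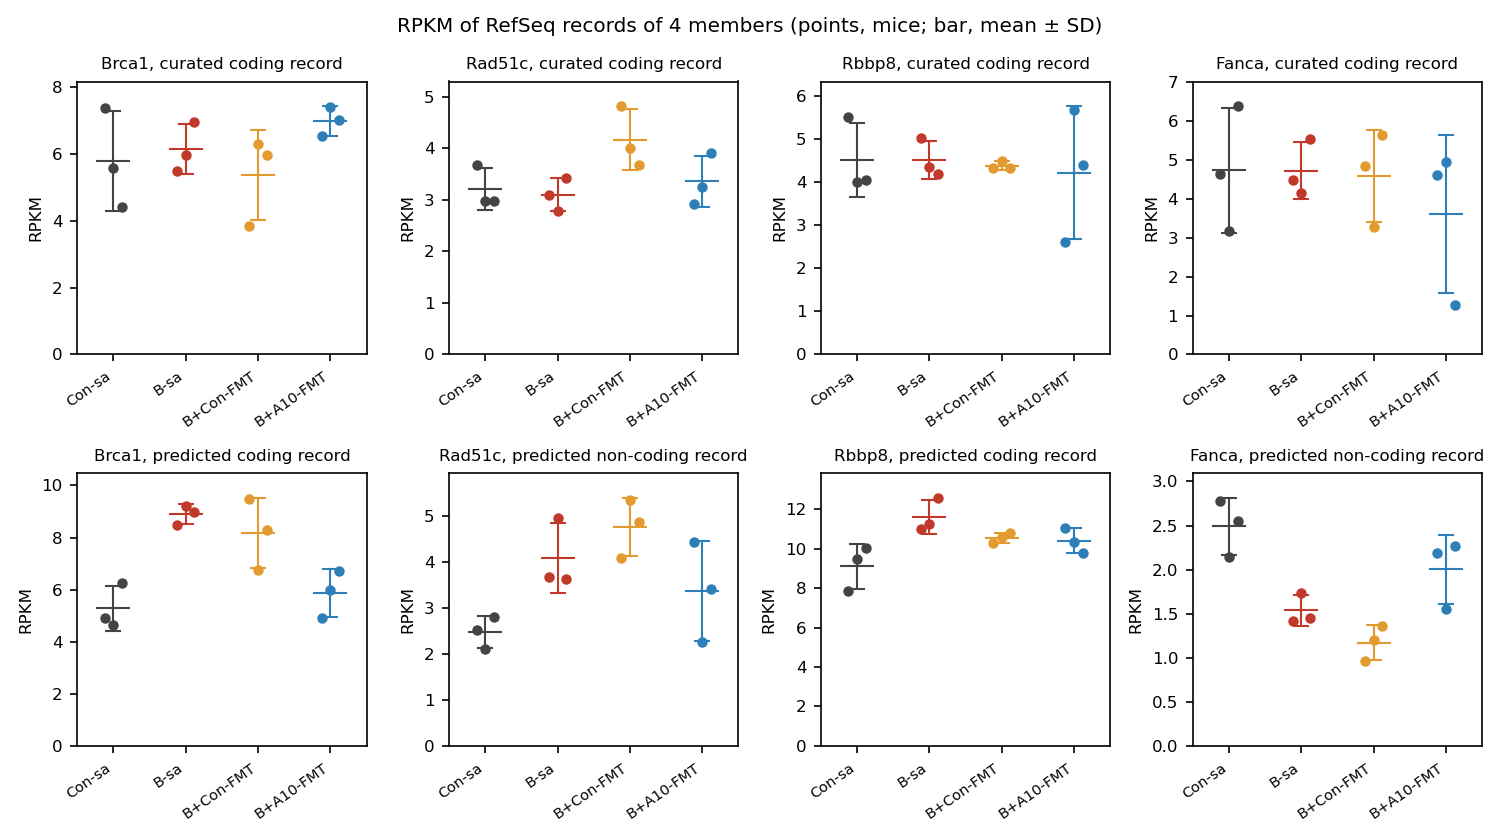
RPKM (y axis, from 0) of curated (upper row) and predicted (lower row) RefSeq records of Brca1, Rad51c, Rbbp8 and Fanca, with 1 point per mouse and the mean ± SD of 3 mice in each group (x axis). The Brca1 predicted record is at 5.28 ± 0.857 RPKM in Con-sa and 8.89 ± 0.374 in B-sa, while the curated records of the 2 groups overlap in all 4 genes.

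Single mice weighed on the number of calls in B-sa against Con-sa. Of 7 members called with all mice, 3 remained called without Con-sa replicate 1, 2 without Con-sa replicate 2, 3 without Con-sa replicate 3 and 2 without B-sa replicate 2, and Fancl and Brca1 were among them each time. Over all genes, 1838 calls became 827, 786, 939 and 513 in the same order. Without B-sa replicate 1, 9 members and 2100 of all genes were called. Of the 4 members called in B+Con-FMT against Con-sa, 2 (Rad51c and Fanca) remained without any single Con-sa mouse, without B+Con-FMT replicate 1 or 3 and without B+A10-FMT replicate 1. Calls over all genes there fell from 1124 to 329, 367 and 659 without Con-sa replicate 1, 2 or 3. They fell to 393 and 601 without B+Con-FMT replicate 1 or 3, and to 955 without B+A10-FMT replicate 1.

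Other genes of crosslink and strand-break repair, a list of 52, had 6 members called higher and none lower in B-sa against Con-sa, 11.5% of the list beside 4.73% of all genes called higher and 9.78% lower. The called genes with the largest changes were Neil3, a glycosylase that unhooks some crosslinks (log2 fold change 0.41, adjusted p = 0.0138), Rad51ap1, a recombination cofactor (0.38, adjusted p = 0.0110), the replication clamp Pcna (0.34, adjusted p = 0.00533), the resection nuclease Exo1 (0.31, adjusted p = 0.0249) and Rpa3, a subunit of the protein that coats single-stranded DNA (0.30, adjusted p = 0.0294). The list had a median log2 fold change of 0.03, beside -0.04 for all genes. In B+Con-FMT against Con-sa, Pcna and Rpa2 were higher, beside 2.3% of all genes, and Rad50 was lower, beside 6.57%. With limma, none of these 52 genes was called in B+A10-FMT against Con-sa (5 at an unadjusted p under 0.05, beside 13.5% of all genes).

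Between busulfan groups, Neil3 fell below its B-sa level in B+Con-FMT (-0.46, adjusted p = 0.0390), where 0.221% of all genes were called lower, and Pcna fell below its B-sa level in B+A10-FMT (-0.25, adjusted p = 0.0299), where 1.27% were. Against B+Con-FMT, the B+A10-FMT mice had higher Wrn (0.33, adjusted p = 0.0284), Clspn (0.30, adjusted p = 0.0472) and Rad50 (0.25, adjusted p = 0.0217), 3 of 52 genes beside 7.58% of all genes, and none of the list was called lower.

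Of 26 proliferation genes, which dividing cells express, 19 were called higher and none lower in B-sa against Con-sa, beside 4.73% of all genes called higher. Their median log2 fold change was 0.31, and among them were Plk1 (0.47, adjusted p = 0.00458) and Cdc45 (0.44, adjusted p = 0.00486). Their summed level was 1483 to 1608 RPKM among Con-sa mice, 1728 to 1998 for B-sa, 1548 to 1830 for B+Con-FMT and 1674 to 1763 for B+A10-FMT. Of these genes, 3 were called higher in B+Con-FMT against Con-sa, beside 2.3% of all genes, and none was called by limma in B+A10-FMT against Con-sa (11 at an unadjusted p under 0.05, beside 13.5%).

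The mean log2(RPKM + 1) of the 39 members was 2.98, 2.92 and 2.95 among Con-sa mice, 3.04, 3.04 and 3.06 for B-sa, 2.93, 2.97 and 3.05 for B+Con-FMT and 2.97, 3.08 and 3.04 for B+A10-FMT. All B-sa mice lay above all Con-sa mice, and 2 B+Con-FMT mice and 1 B+A10-FMT mouse lay within the Con-sa range. The p53 target genes, which DNA damage switches on, had 2 of 13 tested genes called higher in B-sa against Con-sa, Cdkn1a and Phlda3. This was 15.4%, beside 4.73% of all genes called higher. The list had a median log2 fold change of -0.03 there, and 6 of 13 genes were above 0, beside 40.2% of all genes. In B+Con-FMT against Con-sa, 4 p53 target genes were called higher (Cdkn1a, Phlda3, Aen and Bax), 30.8% beside 2.3%. With limma, none was called in B+A10-FMT against Con-sa (6 at an unadjusted p under 0.05, beside 13.5% of all genes). Against B+Con-FMT, the B+A10-FMT mice had lower Aen and Bax, beside 2.78% of all genes called lower, and higher Sesn2, beside 7.58% called higher.

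Cell type markers also moved between the groups. In B-sa against Con-sa, 6 of 12 erythroid precursor genes were higher (2345 to 2599 RPKM summed in Con-sa and 2498 to 3263 in B-sa), 4 of 6 granulocyte precursor genes were higher (333 to 360 and 598 to 1066 RPKM) and 6 of 8 B cell genes were lower (2055 to 2264 and 1554 to 1875 RPKM), beside 4.73% of all genes called higher and 9.78% lower. In B+Con-FMT against Con-sa, 3 of 7 T cell genes were higher (260 to 305 and 331 to 410 RPKM), beside 2.3% of all genes. Between the FMT groups, 5 of 6 germinal centre B cell genes were lower (75 to 103 RPKM among B+Con-FMT mice, 49 to 55 among B+A10-FMT mice), beside 2.78% of all genes. The part of proliferation and of cell composition in the members' differences was not tested.

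**Figure D4:**
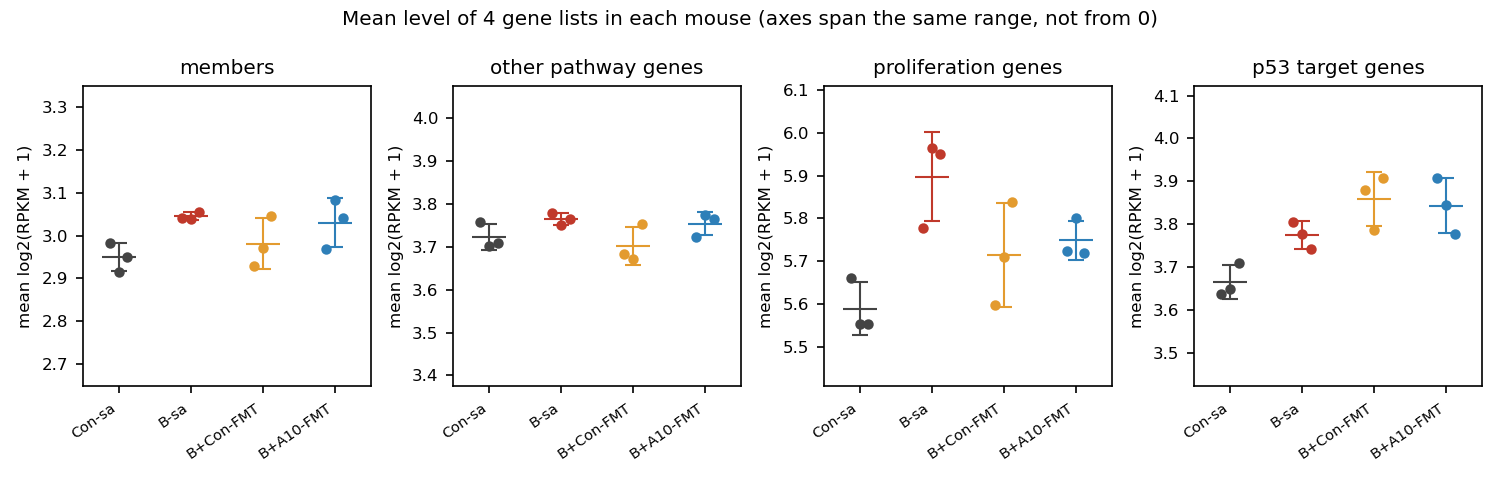
Mean log2(RPKM + 1) of the members, the other pathway genes, the proliferation genes and the p53 target genes in each mouse (points), with the mean ± SD of 3 mice in each group (x axis), on y axes of equal span that do not start at 0. The members lie at 2.95 ± 0.033 in Con-sa and 3.05 ± 0.010 in B-sa and the proliferation genes at 5.59 ± 0.061 and 5.90 ± 0.104.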

How the data were processed

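Spleens of 12 male ICR mice, 3 in each of 4 groups taken from the agent labels, gave the RNA. Per the study's methods, the authors enriched RNA with oligo(dT), sequenced it on an Illumina HiSeq and mapped reads (SOAPaligner). The deposited tables hold the RPKM of 60654 RefSeq transcripts. The submitters' processing notes instead name HISAT, Bowtie2 and mm10, and the labels name BGISEQ protocols. How reads were divided between the records of a gene, and whether strand was used, is not given in the sources used here.

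RPKM was summed to 18221 genes, and the 12671 genes with at least 1 RPKM in at least 3 mice were fitted with limma 3.58.1 in R 4.3.3 (trend and robust settings) on log2(RPKM + 1), with all mice in 1 fit. P-values are two-sided and Benjamini-Hochberg adjusted over all genes tested. An exact permutation test of 3 against 3 cannot go below p = 0.1 and was not used. Python 3.11.15 with pandas 2.3.3, NumPy 2.4.6 and matplotlib 3.10.9 was used for the rest. The study's DEGseq test needs read counts and was not run. Depth was estimated from the steps between low values, with 160 bases taken off each transcript length, and covers no counting interval.

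The members, the lists and the tests were chosen with earlier results of these data known. Values in all mice are given for each member called in a comparison and for the member of highest mean in each role group, and other pathway genes are named when called, up to 5 in each direction. 1 gene that the list of other pathway genes would also have held was left out of it and is not reported here. The fit was also run on simulated data, and the outcome is not reported here. A member that was not called is not thereby shown to be unchanged. The alternatives were another pseudocount (0.1), no filter, other scalings, curated records only, the replicate number as a block, fits of only the 2 groups compared, the study's threshold, and each mouse left out in turn. The sum without non-coding records was chosen after seeing the data. The labels do not say that mice shared a litter or cage, and p-values measure the spread between these mice.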

Additional observations from a re-analysis of the deposited data

How the results depend on the processing

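The mice carry replicate numbers, but same-numbered mice did not deviate together (r from -0.373 to 0.303), so the pairing is not established. With the replicate block, 2 members were called in B+Con-FMT against Con-sa (4 without it) and 0 in B+A10-FMT against B+Con-FMT (1 without it), and 6 were called in B-sa against Con-sa (7 without it), where Rad51c (adjusted p = 0.0505) and Atm (adjusted p = 0.0518) were lost and Bard1 was gained. The block took all-gene calls from 1124 to 773, from 1312 to 917 and from 1838 to 1462 in the same order. No member was called in B+A10-FMT against Con-sa, B+Con-FMT against B-sa or B+A10-FMT against B-sa in any alternative.

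For B-sa against Con-sa, 7 members called (6 higher and 1 lower) became 10, all higher, with median-of-ratios scaling, 1 with curated records only, 3 with only the 2 groups compared, 0 at the study's threshold (FDR of at most 0.001 and absolute log2 ratio of at least 1) and 2 to 9 with 1 mouse left out. No member could pass the study's threshold, since the largest absolute log2 fold change of a member was 0.52. The study set this threshold for DEGseq, not for limma. All-gene calls went from 1838 to 1702 with median-of-ratios scaling, 741 with curated records only and 1003 with only the 2 groups compared. For B+Con-FMT against Con-sa, 4 became 2 with no filter, with equal totals outside the globin genes and with only the 2 groups compared, 1 without non-coding records, 0 with curated records only and at the study's threshold, and 2 to 4 with 1 mouse left out. For B+A10-FMT against B+Con-FMT, the single call was lost (0) with no filter, with curated records only, without non-coding records, with only the 2 groups compared and at the study's threshold, and 0 to 1 were called with 1 mouse left out. The lost call with curated records only went with a larger log2 fold change of Fancd2 (0.92 against 0.30). That change lay between low curated means, 0.143 RPKM in B+Con-FMT and 1.15 RPKM in B+A10-FMT. The single call was Rad51c, lower, with median-of-ratios scaling and Blm, higher, without B+A10-FMT replicate 1. Of 5 members called for any difference, 0 were called with curated records only and 2 to 5 with 1 mouse left out, 2 without any single Con-sa mouse and 3 without B-sa replicate 2 or 3.

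The median log2 fold change of the members in B-sa against Con-sa (0.13) was 0.029 with curated records only and 0.064 to 0.128 with 1 mouse left out. In B+Con-FMT against Con-sa (0.05) it was -0.022 with curated records only and -0.003 to 0.056 with 1 mouse left out. For B+A10-FMT against Con-sa (0.09) it was 0.033 to 0.119 with 1 mouse left out. In B+Con-FMT against B-sa (-0.06) it was -0.109 with equal totals outside the globin genes (all genes -0.051). For B+A10-FMT against B-sa (-0.01) it was -0.055 with median-of-ratios scaling (all genes 0.002) and 0.064 with curated records only (0.046). In B+A10-FMT against B+Con-FMT (0.04) it was 0.093 with those equal totals (all genes 0.098) and 0.097 with curated records only (0.05). With 1 mouse left out, the members had -0.094 to -0.049, -0.048 to 0.027 and 0.016 to 0.075 in these comparisons, in order. Rad51c in B-sa against Con-sa turned to -0.016 with curated records only. The causes were not tested.

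Over 20 alternatives each at an adjusted p under 0.05, Fancl kept its call in B-sa against Con-sa in 20, Brca1 in 19, Rad54l and Eme1 in 14, Atm and Rbbp8 in 13 and Rad51c in 11. In B+Con-FMT against Con-sa, Rad51c and Fanca kept theirs in 18, Rad54l in 8 and Fancl in 4, and Fancd2 kept its call in B+A10-FMT against B+Con-FMT in 3. Scaling moved the balance of all genes called higher and lower. With median-of-ratios scaling, it went from 292 and 832 to 632 and 499 in B+Con-FMT against Con-sa, from 507 and 161 to 287 and 329 in B+A10-FMT against B-sa, and from 960 and 352 to 551 and 695 in B+A10-FMT against B+Con-FMT. With equal totals outside the globin genes, it went to 199 and 1637, 557 and 164, and 2100 and 239 in the same comparisons, and from 79 and 28 to 67 and 113 in B+Con-FMT against B-sa.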
